A study of Mus musculus with 2 samples.

Results

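H19, Igf2 and Cdkn1c are neighbouring imprinted genes at the distal end of mouse chromosome 7, and their read densities were compared between wild-type and p53 knockout nephron progenitor cells. The genes were taken by symbol from the authors' deposited table: H19 and Cdkn1c, with Igf2 added because it is listed, make 3 of 10617 distinct symbols. They were chosen by their read densities in WT against KO as well as by their place in the genome, so their own differences are a description. The cells were Six2-expressing cap mesenchyme cells, sorted by flow cytometry from embryonic kidneys at embryonic day 15.5 on a mixed CD1 and C57BL background. The wild-type group (WT) was Six2CreGFP+;p53+/+ and the knockout group (KO) was Six2CreGFP+;p53f/f, so every animal carried the Six2 transgene with Cre recombinase and GFP, and the floxed p53 alleles could be deleted only where that transgene was active. There was 1 library per group, which leaves no replicate check and no test of any difference below. The labels do not give the number of embryos pooled in a library or the parental origin of any allele.

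Imprinted genes are expressed mainly from the copy inherited from a single parent. H19 is a long non-coding RNA transcribed from the maternal copy, and its neighbour Igf2, a fetal growth factor of the insulin family, is transcribed from the paternal copy. They share enhancers, and an insulator between them that binds CTCF on the maternal copy keeps the enhancers from Igf2. Cdkn1c encodes p57, an inhibitor of cyclin-dependent kinases that restrains growth, and is transcribed from the maternal copy in an adjoining domain whose imprint control lies at Kcnq1ot1. In the developing kidney, Igf2 and H19 are abundant in the progenitor mesenchyme, and p57 is known as a marker of podocytes, the filtering cells of the glomerulus.

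All 3 genes lie on the minus strand of GRCm38. H19 (ENSMUSG00000000031) spans chr7:142575529-142578143, Igf2 (ENSMUSG00000048583) chr7:142650766-142666816 and Cdkn1c (ENSMUSG00000037664) chr7:143458350-143461050. The start site of Igf2 is 88.7 kb and that of Cdkn1c 883 kb from the start site of H19. GENCODE vM21 gives 7 transcripts of H19, 9 of Igf2 and 5 of Cdkn1c.

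H19 also carries a microRNA hairpin, miR-675, in exon 1 of its longest transcript. Both mature arms are shown because they lie within an exon whose reads make up the H19 density, with the seed, bases 2 to 8, in capitals (RefSeq, GRCm38.p6; minus strand; chr7:142577112-142577133 for the 5p arm and chr7:142577078-142577099 for the 3p arm).
mmu-miR-675-5p: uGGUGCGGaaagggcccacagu
mmu-miR-675-3p: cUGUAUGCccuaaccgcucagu
The seeds of both arms differ from each other. A read density for the mature microRNAs was not analysed here.

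The coding part of Cdkn1c is rich in G and C, a property that matters below because the libraries differed with base composition. Its GC content was 69.0% over 1005 coding bases, against 59.4% for the whole longest transcript, Cdkn1c-201. The 120-base stretch with the highest GC content among codon-aligned stretches of that length is shown, at 81.7% GC, from exon 2 (chr7:143460234-143460353, minus strand, GRCm38, GENCODE vM21). Capitals mark codons that start with CC or GC, which encode proline and alanine.
Cdkn1c coding bases 316 to 435: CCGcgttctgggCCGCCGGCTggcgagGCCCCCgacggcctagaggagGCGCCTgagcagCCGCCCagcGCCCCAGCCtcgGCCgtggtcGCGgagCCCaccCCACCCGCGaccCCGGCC
Of its 40 codons, 12 start with CC and 9 with GC.

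The deposited densities behave as RPKM, reads scaled to gene length and sequencing depth, so they can be compared between genes. Every row of the table has a corrected p-value of at most 0.05 in a comparison the authors made between the 2 libraries, not between genotypes, so genes that differed little are missing from it. Depth was about 91200000 reads in WT and 85600000 in KO, as inferred from genes at 0 in the other library. The targeted gene Trp53 had 33.9 RPKM in WT against 5.38 in KO. The density is for the whole gene, and the labels do not give which exons are floxed. The source of the remaining KO reads was not tested. Six2, which keeps these cells undifferentiated and marks the sort, had 482 RPKM in WT against 509 in KO. All 14 listed nephron progenitor markers were detected in both libraries, from 2.84 to 482 RPKM in WT and from 3.66 to 509 in KO. These markers went both ways, with 7 lower and 7 higher in KO. Among the 4 of largest difference, the KO to WT ratio was 0.681 for Cited1 and 0.765 for Osr1. It was 1.28 for Itga8 and 1.26 for Eya1. On the log2(RPKM + 1) scale used below, the differences of Itga8 and Eya1 were 0.35 and 0.33. They were 0.12 and 0.14 after the GC and length correction described below. Those of Cited1 and Osr1 were -0.53 and -0.38, and -0.40 and -0.27 after that correction.

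H19 was higher in KO, Igf2 differed little, and Cdkn1c was lower. H19 had a density of 2453 RPKM in WT against 3026 RPKM in KO. It ranked 9 in WT and 4 in KO by density among all listed genes. Its KO to WT ratio was 1.23, with a 95% exact (Clopper-Pearson) interval of 1.229 to 1.238 that covers counting error only, and its difference was 0.30 on the log2(RPKM + 1) scale used for all differences below. In the authors' deposited table H19 was 1.28-fold higher in KO, a value that includes a further library scaling by a factor of 1.04.

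Igf2 had a density of 627 RPKM in WT against 655 RPKM in KO. Its ratio was 1.04 (1.040 to 1.050 by the same interval), a log2 difference of 0.063. Its rank moved from 86 to 78. The authors' deposited table gave a 1.09-fold higher value in KO. The ratio is close to 1 and to the authors' scaling factor, so its size depends on how the libraries are scaled.

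Cdkn1c had a density of 291 RPKM in WT against 170.4 RPKM in KO. The KO library thus held 0.585 times the WT density (0.577 to 0.593 by the same interval), a log2 difference of -0.77, and its rank went from 172 to 285. The authors' deposited table gave a 1.64-fold lower value in KO. Cdkn1c was thus past a 1.5-fold size rule, which 5.49% of all listed genes passed on the lower side, and 2.41% of the 5309 genes at or over a density floor of 7.30 RPKM, the median over all listed genes. H19 and Igf2 were not past it on the higher side, where 0.951% of all listed genes were and 0.659% of those over the floor.

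**Figure D1:**
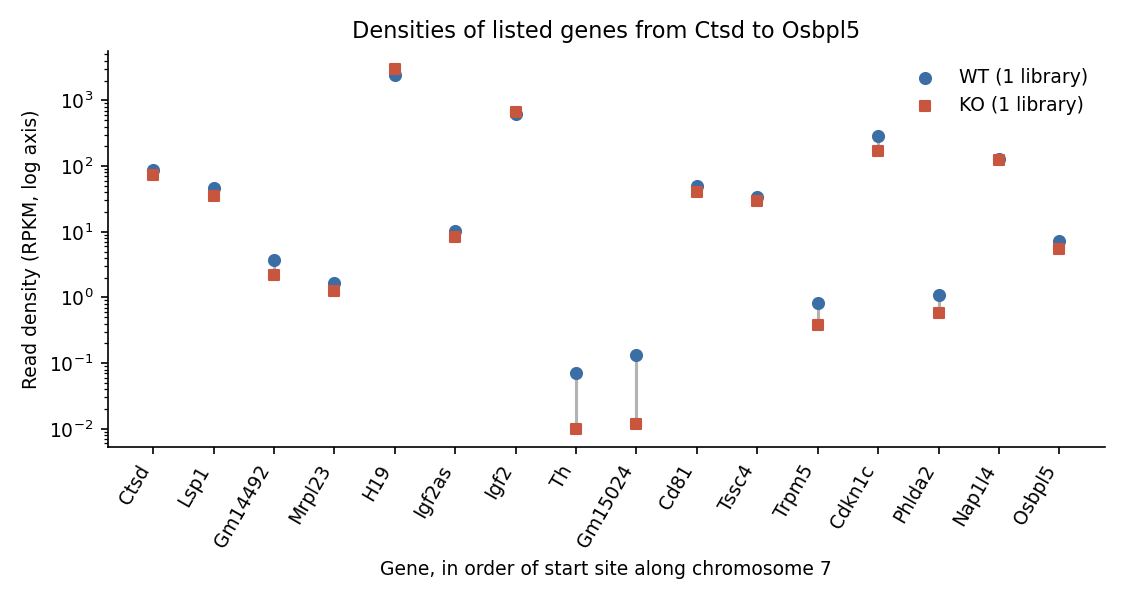
Read density in RPKM (log axis) of each listed gene from Ctsd to Osbpl5, in order of start site, with a circle for the WT library and a square for the KO library. H19 stands highest at 2453 and 3026 RPKM and Igf2 next at 627 and 655, both with the KO square above, while Cdkn1c has the KO square below, at 291 and 170.4 RPKM.

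Ratios between genes within a library do not depend on library scaling. H19 had 3.91 times the density of Igf2 in WT and 4.62 times in KO, so this ratio was 1.18 times as large in KO. H19 had 8.42 times the density of Cdkn1c in WT and 17.8 times in KO, which is 2.11 times as large. Igf2 had 2.15 times the density of Cdkn1c in WT and 3.84 times in KO. Relative to Six2, Igf2 was at 1.30 in WT and 1.29 in KO, H19 at 5.09 and 5.94, and Cdkn1c at 0.604 and 0.335.

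The genes around them were mostly lower in KO. Of 32 names fixed for the region and its edges, 14 are listed, and 12 of these were lower, beside 63.9% over the whole table. Without H19, Igf2 and Cdkn1c, whose values were used to choose them, 11 of 11 were lower. The only higher genes among the 14 were H19 and Igf2, beside 36.1% higher over the whole table and 44.2% among genes over the floor. The list median was -0.25, beside -0.11 over all listed genes, and Cdkn1c was the only gene of the list at least 1.5-fold lower by the size rule, which adds 1 RPKM and so understates the low genes Phlda2, Trpm5 and Th. At or over the floor, 7 of 9 genes of the list were lower, beside 55.8% of all genes over the floor. After centring both libraries on the median difference of genes over the floor, 11 of the 14 were lower, since Nap1l4 changed sign. The share of all listed genes lower after centring was not counted. After the GC and length correction described below 12 of the 14 were lower.

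On the H19 side of the region, Mrpl23, a mitochondrial ribosomal protein gene, had 1.65 RPKM in WT against 1.27 in KO. Lsp1, an actin-binding protein gene of leukocytes, had 46.3 and 35.4 RPKM, a log2 difference of -0.38. Ctsd, the lysosomal protease cathepsin D, had 86.4 and 72.4 RPKM. These genes were each lower in KO by less than 1.5-fold. Igf2as, which overlaps Igf2 on the other strand, had 10.1 RPKM in WT against 8.35 in KO, a log2 difference of -0.25 where that of Igf2 was 0.063. The strand used in counting is not given in the sources used here, so reads of this pair cannot be told apart. Th, tyrosine hydroxylase, was near 0 in both libraries, with 0.0696 and 0.00988 RPKM.

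Among the genes nearer to Cdkn1c, the membrane protein gene Cd81 had 49.3 RPKM in WT against 40.7 in KO. Tssc4 had 33.5 and 29.1 RPKM, and the ion channel gene Trpm5, which overlaps Tssc4 on the other strand, had 0.833 and 0.374 RPKM. Phlda2, another maternally expressed growth restraint gene next to Cdkn1c, was low in both libraries, at 1.10 and 0.586 RPKM, or an estimated 113 and 56 reads, which puts KO at 0.533 times WT (0.376 to 0.733 by that interval). The small densities put its log2 difference at -0.41 on the scale with 1 RPKM added. Nap1l4, a histone chaperone gene just beyond Phlda2, had 129 RPKM in WT against 125 in KO. It was 0.039 lower on the log2 scale, 0.033 higher after centring, and 1.01-fold higher in the authors' deposited table. Osbpl5, a lipid transfer protein gene at the far edge, had 7.16 and 5.51 RPKM.

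**Figure D2:**
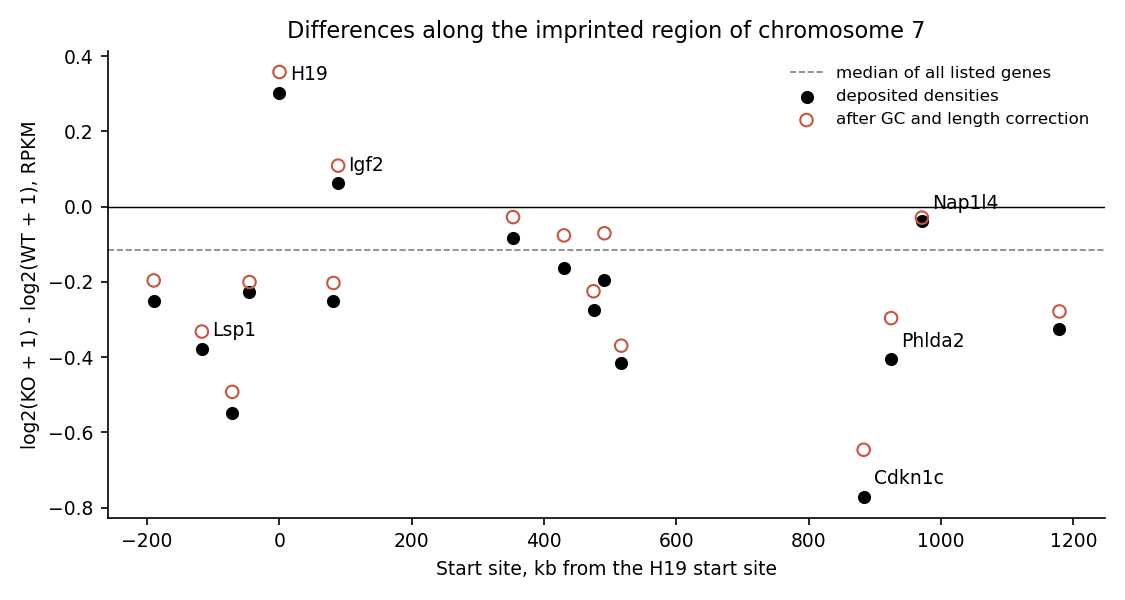
Difference log2(KO + 1) minus log2(WT + 1) in RPKM of each listed gene from Ctsd to Osbpl5 against the distance of its start site from that of H19 in kb; filled points are the deposited densities, open points the values after the GC and length correction, and the dashed line the median of all listed genes. Of the 16 genes, only H19 (0.30) and Igf2 (0.063) lie above 0, and Cdkn1c (-0.77) lies lowest.

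The libraries differed with base composition, which touches each of the 3 genes. Over 5263 genes above the floor with a gene model, GC content and the log2 difference had a Spearman's rho of -0.52 across genes, which are not independent replicates. The median difference went from 0.19 in the lowest of 10 GC bins to -0.15 in the highest. H19 (55.8% GC) and Igf2 (55.8% GC) fall in bin 8, whose median was -0.13, and Cdkn1c (59.4% GC) in bin 10. After a correction for GC content and length the log2 difference of H19 was 0.36, that of Igf2 0.11 and that of Cdkn1c -0.65, so each gene kept its direction. Corrected values are not centred on 0, as their median was -0.11 over all listed genes and -0.072 over the floor. The share of all listed genes below 0 after the correction was not counted, so corrected list counts have none beside them.

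Set beside other genes of like GC content and length, H19 had 7 of 156 genes above it in log2 difference and Cdkn1c had 8 of 195 genes below it. Those below Cdkn1c, named after their values were seen, were Ttc36, Igfbp7, Phlda3, Rpl29, Apoe, Plvap, Hist1h2bj and Cldn5. Phlda3 is a known p53 target, Igfbp7 and Plvap are expressed in blood vessels, and Rpl29 has many processed copies that can share its reads. Igf2 had 20 of 130 such genes above it. Among the 530 other genes in the highest of 20 bins of mean density, 21 lay above H19 and 5 below Cdkn1c. The lowest of them was the globin gene Hbb-b1 at -4.47. That bin holds H19, Igf2 and Cdkn1c and reaches far below H19 in density, as with Zfp503 at 91.7 RPKM in WT.

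**Figure D3:**
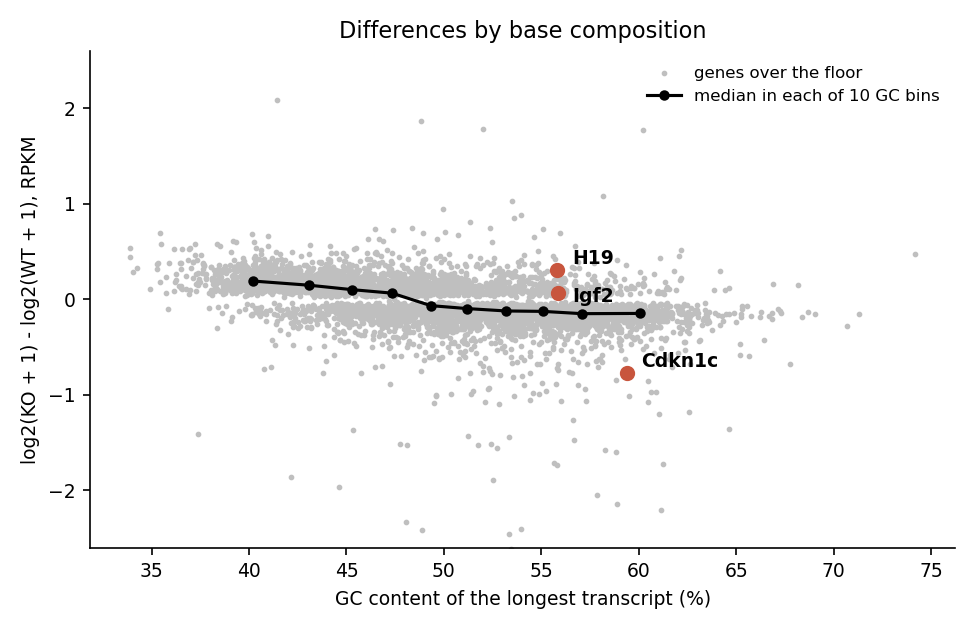
Difference log2(KO + 1) minus log2(WT + 1) in RPKM against the GC content of the longest transcript in percent for 5263 genes over the floor (grey; 10 lie outside the axis), with the median of each of 10 GC bins (black) and the 3 genes (red). The bin medians fall from 0.19 to -0.15, H19 and Igf2 lie above the line, and Cdkn1c lies below it.

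Cdkn1c was by far the most abundant inhibitor of cyclin-dependent kinases listed. Its density was 12.97 times that of Cdkn1a, the p21 gene and a direct p53 target, in WT and 13.4 times in KO. Cdkn1a had 22.5 RPKM in WT against 12.7 in KO, a log2 difference of -0.77. Its KO to WT ratio, without the added 1 RPKM, was 0.566, where that of Cdkn1c was 0.585. After the GC and length correction the difference of Cdkn1a was -0.72 and that of Cdkn1c -0.65. Cdkn1b, the p27 gene, had 11.8 RPKM in WT against 13.3 in KO, a log2 difference of 0.16 that became -0.071 after the GC and length correction. Cdkn2d, the p19 gene of the INK4 family, had 27.9 and 25.5 RPKM. Cdkn2a was listed at 0.0750 RPKM in WT and at 0 in KO.

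Of the 18 listed genes of this list, inhibitors with their cyclin and kinase targets, 10 were lower and 8 higher, a split near that of the whole table, where 63.9% were lower. The count was 13 lower after the GC and length correction. The median was -0.083, and Cdkn1a and Cdkn1c were the only members at least 1.5-fold lower. The cyclin D genes went both ways, with Ccnd1 at 159 RPKM in WT against 174 in KO, Ccnd2 at 51.9 and 38.1, and Ccnd3 at 106 and 90.9. Ccne2, cyclin E2, differed most on the higher side, with 4.45 and 6.54 RPKM, a log2 difference of 0.47 and of 0.21 after the correction.

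The IGF axis list holds the ligands, their receptors and binding proteins, and proteins that bind Igf2 mRNA. Of its 17 listed genes, Igf2 included, 10 were lower and 7 higher, near the 63.9% lower over the whole table, with a median of -0.073, which was -0.0011 after centring, and 12 were lower after the GC and length correction. Igf1r, the receptor through which IGF2 signals, had 10.01 RPKM in WT against 12.01 in KO, and Irs2, an adaptor of that receptor, 21.0 and 26.9. With the correction the log2 difference of Igf1r went from 0.24 to 0.096 and that of Irs2 from 0.34 to 0.39. Igf2r, itself an imprinted gene whose product clears IGF2, had 18.9 and 17.9 RPKM. The density of Igf2 was 33.2 times that of Igf2r in WT and 36.6 times in KO.

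The binding proteins that hold IGF in the matrix and circulation held the largest differences of the axis. Igfbp7 had 19.2 RPKM in WT against 5.67 in KO, Igfbp6 10.6 and 3.64, and Igfbp3 9.40 and 4.92. These 3 were the members at least 1.5-fold lower by the size rule. Igfbp5, the most abundant of them, went the other way, with 349 RPKM in WT against 455 in KO, a log2 difference of 0.38 that was also 0.38 after the correction. Pappa, a protease that frees IGF from its binding proteins, had 1.04 and 0.406 RPKM. The renal stroma list, 13 genes that include none of these, summed to 304 RPKM in WT against 138 in KO, and the part of stromal cells in these values was not tested.

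Imprinted genes elsewhere in the genome were mostly lower as well. The maternal and paternal lists go by prior knowledge from any tissue, and the allele expressed in these cells was not measured. Of 19 listed genes of the maternal list, 17 were lower and 4 at least 1.5-fold lower, with a median of -0.25. Of all listed genes 63.9% and 5.49% were, with a median of -0.11. Of 21 listed genes of the paternal list, 16 were lower and 2 at least 1.5-fold lower, with a median of -0.18. The correction gave 18 of 19 and 19 of 21 lower. Most of these genes are weakly expressed, and at or over the floor 4 of 6 maternal and 3 of 7 paternal genes were lower, where 55.8% of all genes over the floor were. The median of those 7 paternal genes was 0.071, on the other side of 0 from that of the whole list.

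Grb10, an adaptor that restrains growth and is expressed from the maternal copy, had 224 RPKM in WT against 240 in KO, a log2 difference of 0.094 that became -0.050 after the correction. Mest, expressed from the paternal copy, had 474 and 361 RPKM, and Peg3 had 87.4 and 71.3. Nnat had 96.3 and 88.2 RPKM. Plagl1, a zinc finger factor known to regulate H19, Igf2 and Cdkn1c in mouse embryos, had 8.60 RPKM in WT against 5.36 in KO, a log2 difference of -0.59. Ube3a, a ubiquitin ligase imprinted in neurons, had 12.3 and 18.2 RPKM, the highest log2 difference of the maternal list at 0.53, and 0.25 after the correction.

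The genes of the Dlk1 and Meg3 region, the imprinted cluster of chromosome 12, were below the density floor in both libraries. They were lower in KO in 6 of 6 listed cases, where 63.9% of all listed genes were. Their log2 differences ran from -0.84 to -0.082. Dlk1, a membrane protein of the Notch ligand type, had 2.56 RPKM in WT against 0.989 in KO. The non-coding RNA Meg3 had 1.68 and 0.641 RPKM, and Rian, listed as AC152063.2, had 3.48 and 1.74. This cluster was set apart after its values were seen. Dcn, the matrix protein decorin, had 14.3 and 4.76 RPKM, the lowest log2 difference of the maternal list at -1.41, and is also a stromal marker. Slc22a2, a cation transporter gene of tubules, had 1.11 and 0.138 RPKM.

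**Figure D4:**
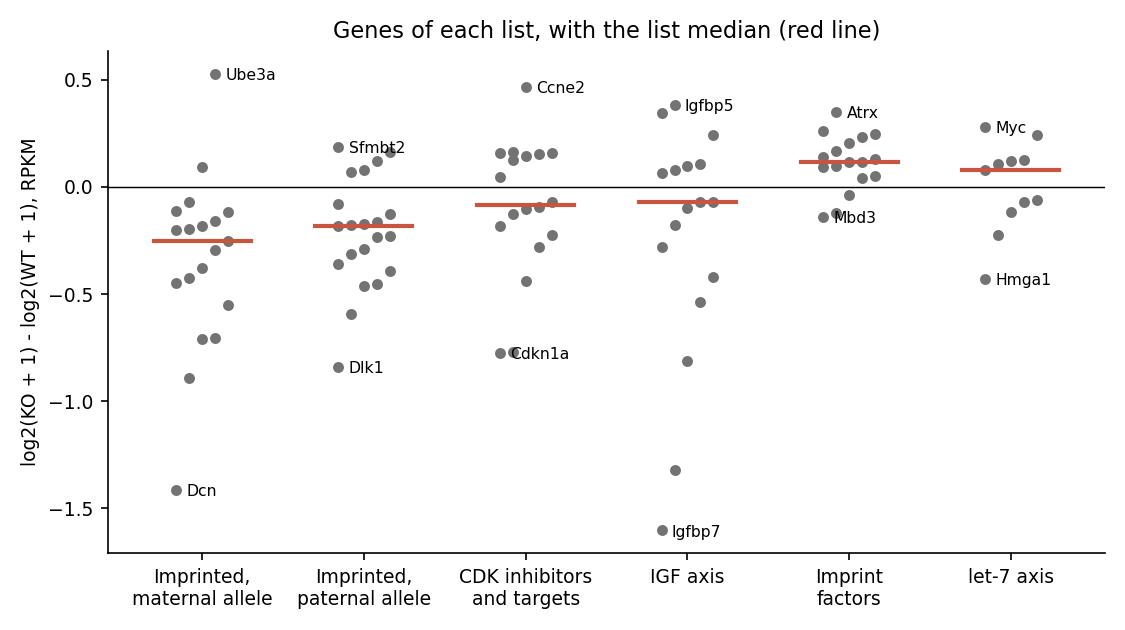
Difference log2(KO + 1) minus log2(WT + 1) in RPKM of every listed gene of 6 lists (grey points; the red line is the list median), with the lowest and highest gene of each list named. The imprinted lists have medians of -0.25 and -0.18, and Cdkn1c is the point beside Cdkn1a near -0.77.

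Markers of most other cell types that a sort could hold were lower in the KO library. Cdkn1c is itself on the podocyte list. In bulk samples fewer cells of a type and less RNA per cell cannot be told apart. All 7 listed podocyte markers other than Cdkn1c were lower, where 63.9% of all listed genes were. Their summed density was 78.7 RPKM in WT against 54.6 in KO, with none at 0 in either library. Nes, the filament protein nestin, which is also made by other cells, held most of that sum with 64.4 and 50.8 RPKM, and the other 6 markers summed to 14.4 RPKM in WT against 3.85 in KO. Podxl, a podocyte surface protein also made by endothelium, had 8.99 RPKM in WT against 1.59 in KO. Synpo, an actin-binding protein of podocytes, had 1.73 and 0.654 RPKM. The part of podocytes in the Cdkn1c difference was not tested.

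All listed markers of renal stroma (13), endothelium (11), erythroid cells (11), leukocytes (10) and ureteric bud (12) were lower in KO, where 63.9% of all listed genes were. After the correction 1 erythroid marker, Gata1, was not. At least 1.5-fold lower were 12, 5, 6, 6 and 3 of them in that order, beside 5.49% of all listed genes. Most were weakly expressed outside stroma, with 8, 1, 4, 0 and 0 at or over the density floor. Of 10 skeletal muscle markers 3 are listed, with 1 lower and 2 higher and a sum of 42.3 RPKM in WT and 50.9 in KO, nearly all of it Des, the filament protein desmin. Col1a1, the stromal collagen, had 37.8 and 7.82 RPKM, Plvap of endothelium 10.7 and 4.98, and Krt8 of ureteric bud 5.41 and 1.88. The erythroid sum was 633 RPKM in WT against 23.9 in KO, with Gata1 and Hba-x at 0 in KO; no marker of the other 4 lists was at 0. Endothelial markers summed to 24.5 and 11.3 RPKM, leukocyte markers to 16.4 and 2.61, and ureteric bud markers to 28.4 and 14.7. Nephron progenitor markers summed to 1214 and 1269 RPKM, with 7 of 14 lower. H19, Igf2 and the sums of progenitor and muscle markers thus had ratios above 1, and the other sums ratios below 1. The part of these cells in the values of the 3 genes was not tested.

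**Figure D5:**
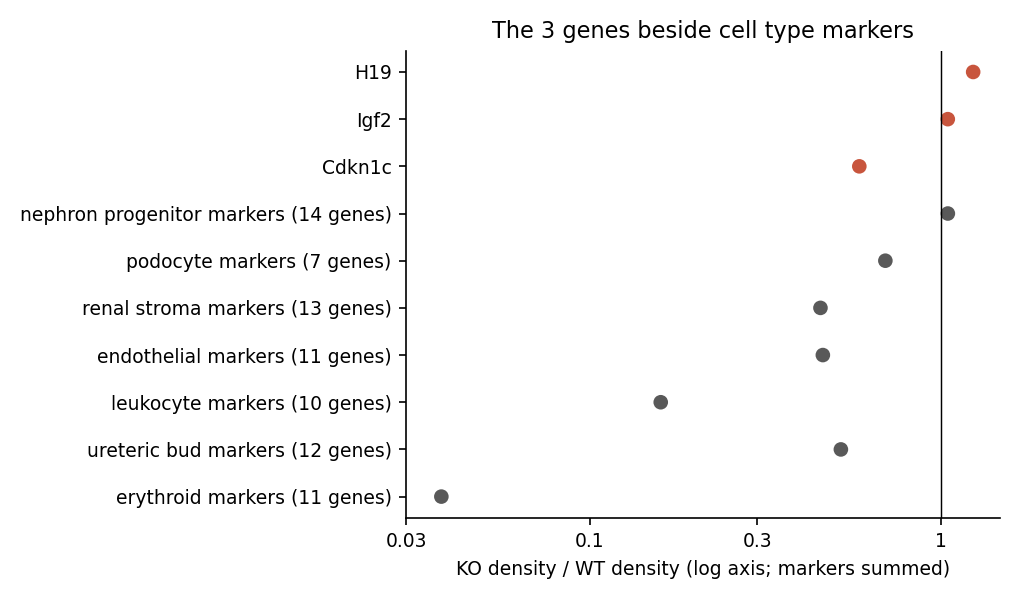
Ratio of KO to WT density (log axis) for the 3 genes (red) and for the summed densities of marker lists (grey, members left out). H19 (1.23), Igf2 (1.04) and the progenitor markers lie above 1, Cdkn1c (0.585) lies below 1, and the podocyte (0.694, mostly Nes), stroma (0.453) and erythroid (0.0378) sums lie below 1 too.

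By distance over both libraries on the log2(RPKM + 1) scale, the genes nearest to H19 were AC113287.1 (2308 and 2721 RPKM), Rps26-ps1 and Eef1a1, a translation elongation factor with 2345 RPKM in WT against 2357 in KO. Those nearest to Igf2 were Nedd4, a ubiquitin ligase with 630 and 648 RPKM, Cd24a and Rps25-ps1. Those nearest to Cdkn1c were Ppib, Ifitm2 and Cd63-ps, at distances of 0.35, 0.35 and 0.35. With 2 libraries this measures likeness in level and difference only, and pseudogene copies can share reads with their parent genes.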

How the data were processed

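RNA libraries, 1 each of sorted WT and KO nephron progenitors was sequenced. Per the submitters' processing notes, CASAVA 1.8, Novoalign 2.08.02 and FastQC were used with GRCm38 and mm10, with no role given; for counting rules and strand, the sources used here give nothing. The authors' table, per the file headers, holds a deposited read density per library, here read as RPKM, with a p-value, a corrected p-value, a fold ratio and a signed fold score. The table has 10627 rows; of 8 symbols on more than 1 row the row with the highest mean density was used.

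Computed here (Python 3.11.15, scipy 1.17.1) were log2(KO + 1) minus log2(WT + 1), a 1.5-fold size rule, counts and medians of 15 gene lists, and exact 95% intervals of ratios from reads estimated as density times exon length times implied depth. Genes with a whole number of reads within 0.01 gave the depth (102 of 149 genes in WT and 48 of 67 in KO shared a constant within 1%). GC content and length came from GENCODE vM21, which covers 10508 listed genes. The correction subtracts the median of genes over the floor in the same of 10 GC and 4 length bins. It then adds back -0.072, the median difference over the floor without binning, so corrected values are not centred on 0. The scripts were tested on simulated data.

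The genes, lists and alternatives were chosen with earlier results of these data known. Named genes were the 3 genes, every listed gene of the chromosome 7 list, up to 4 genes of largest difference per other list, Trp53, Six2 and the 3 nearest genes to each; further names were picked with values in view.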

Additional observations from a re-analysis of the deposited data

How the results depend on the processing

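The directions of H19, Igf2 and Cdkn1c held under each of 5 alternatives, and both pseudocounts (0.25 and 4) left all 3 differences within their counting intervals. A pseudocount cannot change the sign of a difference. Centring and the authors' scaling raised every difference by a constant, so they could not reverse H19 or Igf2. Centring on the median difference, the authors' scaling and the GC and length correction gave 0.37, 0.36 and 0.36 for H19, 0.13, 0.12 and 0.11 for Igf2, and -0.70, -0.71 and -0.65 for Cdkn1c. The Igf2 value thus moved from 0.063 by over 1.5 times under each. Of all listed genes, 583 were at least 1.5-fold lower and 101 higher. Only genes over the floor gave 128 and 35, a pseudocount of 0.25 gave 1384 and 251, and a pseudocount of 4 gave 181 and 32. With only genes over the floor, 7 of 9 genes of the chromosome 7 list, 4 of 6 maternal and 3 of 7 paternal genes were lower. Of all genes over the floor, 55.8% were lower. The smaller counts follow from fewer genes; the shares moved too, and the cause was not tested. Under the other alternatives the list counts stayed within 1.5 times, and under both pseudocounts they could not change. No paired analysis was possible because each group has 1 library and no replicate number. Counting error is small at these densities, and the spread between animals is unknown.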

Other observations

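Factors that keep imprints or form the H19 insulator were mostly higher in KO by small amounts. Of 17 listed, 14 were higher, where 36.1% of all listed genes were higher, and none reached 1.5-fold. Ctcf, the insulator protein itself, had 37.0 RPKM in WT against 44.1 in KO, a log2 difference of 0.25, and Atrx, a chromatin remodeller, had 15.3 and 19.7. Dnmt1, the maintenance DNA methyltransferase, had 39.7 and 36.3 RPKM. The GC and length correction put 11 of the 17 below 0 and moved the median from 0.12 to -0.016. That median changed sign but stayed above the corrected medians of all listed genes, -0.11, and of genes over the floor, -0.072. Ctcf was still higher at 0.096, and Atrx went from a log2 difference of 0.35 to 0.069.

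H19 is also known for binding let-7, a microRNA family that restrains growth genes. The seed match of let-7a, whose mature sequence is given with its seed in capitals (RefSeq, GRCm38.p6), is CTACCTC.
mmu-let-7a-5p: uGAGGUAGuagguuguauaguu
On the sense strand these letters occur 0 times in the longest H19 transcript 0 times in Cdkn1c-201 and 2 times in Igf2-205, and they occur in 18.97%, 16.4% and 30.6% of listed genes' longest transcripts of like length. This search does not cover imperfect sites. Of 11 listed genes of the let-7 axis, 6 were higher and 5 lower, where 36.1% of all listed genes were higher and 63.9% lower, and none reached 1.5-fold. The GC and length correction put 8 of the 11 below 0 and moved the median from 0.078 to -0.066. The corrected median was -0.11 over all listed genes and -0.072 over the floor. Hmga2, a chromatin protein gene and known let-7 target, had 64.9 RPKM in WT against 70.8 in KO, a log2 difference of 0.12 that became -0.065 after the correction. Myc had 27.5 and 33.5 RPKM, and Hmga1 104.6 and 77.4. The RNA-binding proteins that repress let-7 maturation, Lin28a and Lin28b, were each below 1 RPKM in both libraries.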
